A study of Homo sapiens with 6 samples.

Results

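Amino acid transporters of 7 solute carrier families were followed in RNA-seq libraries of SW620, an established human colorectal cancer line, as the labels name every library. The members are the genes whose symbols are SLC1A, SLC3A, SLC6A, SLC7A, SLC36A, SLC38A or SLC43A followed by digits, without antisense or pseudogene symbols. Of the 20729 genes in the count table, 47 met this rule. The cells had received siRNA against OSBPL3 (siOSBPL3, 3 libraries) or a control siRNA (siNC, 3 libraries). SiRNA sequences, dose and duration are not stated in the labels. The labels do not tie the replicates to separate cultures, so the p-values cover the spread among the sequenced samples alone, and that spread may be technical. In such bulk RNA, fewer cells of a type and less RNA per cell cannot be told apart.

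Cells take up amino acids through carriers with overlapping substrates. SLC1, SLC6, SLC36 and SLC38 proteins mostly couple uptake to sodium or proton gradients, whereas SLC7 light chains exchange one amino acid for another and reach the cell surface bound to a heavy chain, SLC3A2 or SLC3A1. Colorectal cancer cells are known for high SLC7A5, SLC3A2 and SLC1A5, which together carry leucine and glutamine, and for SLC7A11, which brings in cystine for glutathione. Not every member moves amino acids: part of the SLC6 family carries neurotransmitters, taurine, betaine or creatine, and SLC43A3 carries purine nucleobases.

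The libraries held 34569895, 36437505 and 39701340 counts in siOSBPL3 and 33490163, 33667128 and 30040020 counts in siNC. OSBPL3 itself, an oxysterol-binding-protein-related protein, stood at 40.2, 12.2 and 15.1 CPM in siOSBPL3, against 179, 174 and 175 CPM in siNC, so siOSBPL3 replicate 1 kept the most of it; it fell (log2 fold change -2.97 ± 0.48 SE, adjusted p = 0.0016), with -2.36 once GC content and transcript length were modelled (called the correction below) and -3.68 without siOSBPL3 replicate 1. Of 15506 genes tested by edgeR's quasi-likelihood method, 12437 (80.2%) were called at a Benjamini-Hochberg adjusted p under 0.05, the rule for every call below. Markers of colorectal epithelium were present in both groups, with 11 of 16 at 1 CPM (counts scaled to a common library size with TMM factors) or more in siOSBPL3 and 10 of 16 in siNC, but the defining genes KRT20 and CDX1 were near 0 in both. Their summed level was 5096 to 6269 CPM in siOSBPL3 and 7233 to 7312 CPM in siNC. CDX2, the intestinal master transcription factor, stood at 53.4, 72.6 and 64.5 CPM in siOSBPL3, against 1.46, 1.29 and 0.708 CPM in siNC. Of 8 fibroblast and mesenchymal markers in the table, 2 reached 1 CPM in siOSBPL3 and 4 in siNC, with a summed level of 4.27 to 8.80 CPM in siOSBPL3 and 759 to 772 CPM in siNC, most of it VIM in siNC, at 2.602, 1.42 and 0.9097 CPM in siOSBPL3, against 684, 699 and 699 CPM in siNC. All 5 of these markers with enough counts for testing were called lower in siOSBPL3, each by at least 2-fold (median log2 fold change -2.47). Over all genes tested, 39.8% were called lower. COL3A1, DCN and THY1 were near 0 in both groups. Summed endothelial, hepatocyte and lung markers stayed at or under 4.50 CPM in every library. Leukocyte markers summed to 11.6 to 17.4 CPM in siOSBPL3 and 20.4 to 22.8 CPM in siNC, with PTPRC and CD3E near 0, and neural markers summed to 104 to 163 CPM in siOSBPL3 and 65.0 to 67.1 CPM in siNC. These differences in cell markers moved with every difference described below, and their part in the results was not tested. Whether both groups hold the same cells was not tested either, and a difference in cells cannot be told apart from the siRNA. Below, rose and fell mean only higher or lower in the libraries labelled siOSBPL3.

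Promoter sequences were read for the members because several carriers of this group are textbook targets of ATF4, which binds a composite element after amino acid shortage, and of NRF2, which binds the antioxidant response element. RefSeq promoters (GRCh38.p14, 250 bases before to 50 after each start) were found for 37 of the 47 members, 58 promoters in all. SLC7A11 was among the members without a promoter, so it was not searched for either motif. The letters TGATGNAA (ATF4 composite element), on either strand, occurred in 6 of the 58 (10.3%) and in 3.62% of all 35116 promoters of the table. The letters TGACNNNGC (antioxidant response element), on either strand, occurred in 7 of the 58 (12.1%) and in 13.3% of all promoters. Of 29 promoters of members that rose, 5 held the first and 6 the second motif, and of 16 promoters of members that fell, 1 held each. SLC1A5, for which no direction is read below, supplied 1 match of each motif to the promoters of members that rose. Starts of 1 gene count separately, and a match describes letters, not binding. Shown here are SLC3A2 and SLC7A1, which hold both motifs in the same promoter, and SLC1A4 and SLC7A5, which rose and hold 1 of them. SLC7A6, the only member with an antioxidant match that fell, is shown too. Capitals mark the motif letters on either strand, and no matches overlap.
SLC3A2 (chr11:62881449-62881748, plus strand): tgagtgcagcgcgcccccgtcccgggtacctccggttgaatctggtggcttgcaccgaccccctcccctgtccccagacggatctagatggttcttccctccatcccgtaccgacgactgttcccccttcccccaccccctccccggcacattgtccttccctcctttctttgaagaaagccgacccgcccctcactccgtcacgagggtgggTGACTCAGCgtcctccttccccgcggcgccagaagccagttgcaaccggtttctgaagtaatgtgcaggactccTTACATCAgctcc
SLC7A1 (chr13:29595639-29595938, minus strand): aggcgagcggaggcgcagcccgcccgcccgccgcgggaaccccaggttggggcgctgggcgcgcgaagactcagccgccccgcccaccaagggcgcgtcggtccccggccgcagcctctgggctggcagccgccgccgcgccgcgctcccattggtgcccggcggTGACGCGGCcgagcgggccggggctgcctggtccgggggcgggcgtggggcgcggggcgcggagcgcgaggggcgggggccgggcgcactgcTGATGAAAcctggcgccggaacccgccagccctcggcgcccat
SLC1A4 (chr2:64989149-64989448, plus strand): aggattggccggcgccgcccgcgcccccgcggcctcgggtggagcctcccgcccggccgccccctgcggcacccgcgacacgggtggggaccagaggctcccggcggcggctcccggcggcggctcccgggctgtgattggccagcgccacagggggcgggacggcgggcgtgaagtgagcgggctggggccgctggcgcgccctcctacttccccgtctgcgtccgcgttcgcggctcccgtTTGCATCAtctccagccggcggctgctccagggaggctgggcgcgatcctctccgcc
SLC7A5 (chr16:87869458-87869757, minus strand): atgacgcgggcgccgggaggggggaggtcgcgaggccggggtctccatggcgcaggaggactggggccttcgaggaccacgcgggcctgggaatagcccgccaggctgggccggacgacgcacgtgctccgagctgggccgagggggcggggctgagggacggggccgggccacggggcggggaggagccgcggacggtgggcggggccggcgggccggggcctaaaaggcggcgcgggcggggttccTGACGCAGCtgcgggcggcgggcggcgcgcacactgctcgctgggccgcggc
SLC7A6 (chr16:68264276-68264575, plus strand): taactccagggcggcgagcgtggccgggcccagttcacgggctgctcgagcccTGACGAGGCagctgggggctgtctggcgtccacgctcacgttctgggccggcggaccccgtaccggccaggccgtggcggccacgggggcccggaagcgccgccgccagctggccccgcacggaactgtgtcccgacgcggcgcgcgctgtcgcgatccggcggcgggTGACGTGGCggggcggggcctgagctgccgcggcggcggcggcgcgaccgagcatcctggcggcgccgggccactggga
SLC1A3, SLC1A5, SLC38A1 and SLC7A7 also had a promoter with a match. In SLC1A3 and SLC1A5 both motifs occurred, but in separate promoters. Whether any of these letters takes part in the differences described next was not tested.

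Enough counts for testing were found in 34 of the 47 members, and 17 of them rose and 13 fell in siOSBPL3. This is 30 of 34 members, where 80.2% of all genes tested were called; higher calls made up 40.4% and lower calls 39.8% of all genes. The 4 tested members that did not pass were SLC6A8, SLC6A16, SLC38A6 and SLC38A8. A change of at least 2-fold was seen for 10 members that rose and 9 that fell, against 48.9% of all genes tested. The groups did not overlap for 30 of the 34 members and for 83.0% of all genes. The median log2 fold change of the tested members was 0.50, against 0.00 (-0.00089) over all genes tested, and it was 0.27 without siOSBPL3 replicate 1 and 0.15 with the correction for GC content and length. The share of members called was thus near the background, and the description below turns on which carriers went which way.

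**Figure D1:**
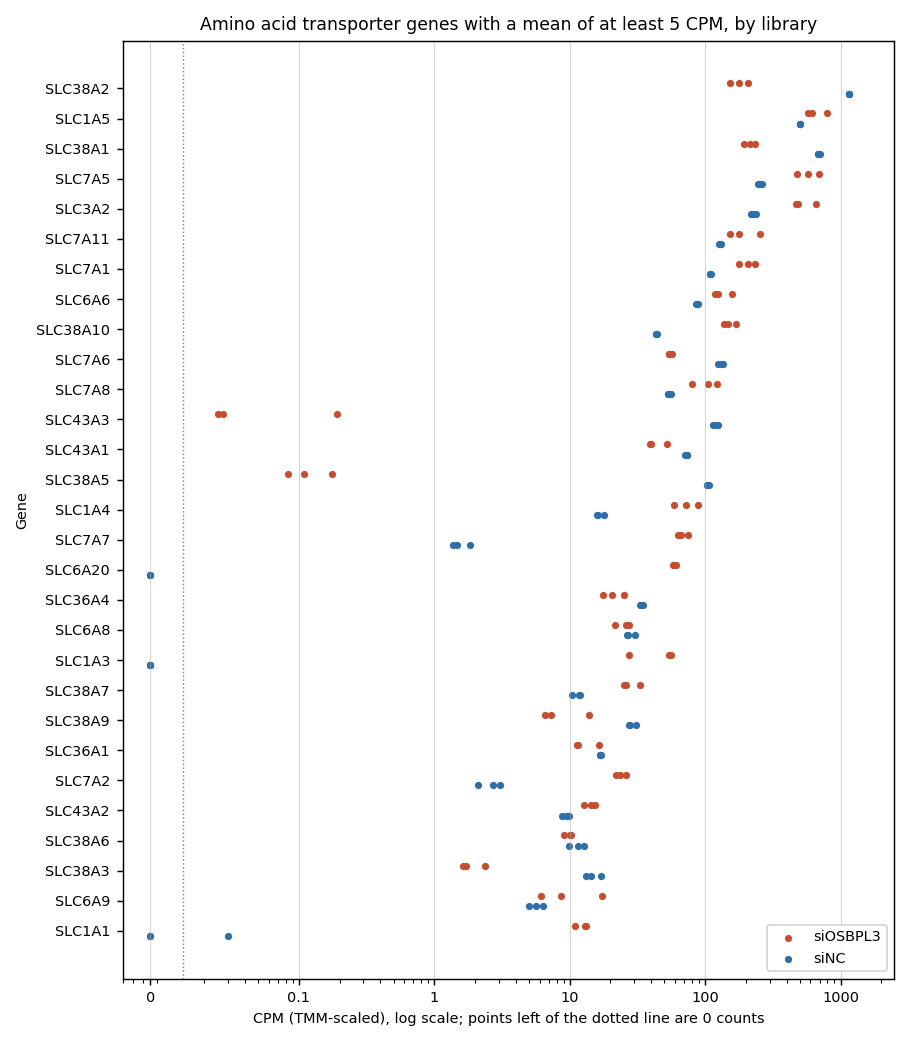
Level, in each of the 6 libraries, of the 29 members that average 5 CPM or more (TMM-scaled CPM, log axis, siOSBPL3 above siNC in each row; libraries with no count are drawn left of the dotted line). SLC43A3 and SLC38A5 were close to 0 in siOSBPL3, and SLC6A20, SLC1A3 and SLC1A1 at or close to 0 in siNC.

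The make-up of the pool of transporter transcripts differed between the groups. Levels can be compared between genes only per length, so CPM were divided by the length of the longest GENCODE transcript in kilobases. Summed over the 47 members, the level per length was 913 ± 126 CPM per kb in siOSBPL3 and 899.9 ± 6.79 CPM per kb in siNC (SD, n = 3 each), a difference smaller than the spread between the siOSBPL3 libraries. With the median length of all transcripts of a gene it was 3065 CPM per kb in siOSBPL3 and 3965 CPM per kb in siNC, so no direction is read for the size of the pool. In siOSBPL3 the pool was led by the heavy chain SLC3A2 with 26.4% of the sum, SLC1A5 with 25.1% and SLC7A5 with 13.9%. In siNC the leaders were SLC38A2 with 26.3%, SLC1A5 with 19.3%, SLC3A2 with 11.3% and SLC38A1 with 9.48%. SLC3A2 and SLC1A5 in siOSBPL3, and SLC38A2 in siNC, kept these ranks with the median length. With that length, however, SLC7A5 had rank 6 in siOSBPL3 (4.73% of the sum), behind SLC7A1, SLC38A2 and SLC38A10. In siNC, SLC1A5 then had rank 4.

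Taken by subfamily, the 11 SLC38 genes held 12.3% ± 0.876 of the length-scaled pool in siOSBPL3 and 43.6% ± 0.241 in siNC (SD, n = 3 each). The heavy chains held 26.4% ± 1.54 in siOSBPL3 and 11.4% ± 0.369 in siNC, and the SLC7 light chains 22.3% ± 0.636 in siOSBPL3 and 11.5% ± 0.272 in siNC. SLC1 genes held 28.1% ± 0.502 in siOSBPL3 and 19.9% ± 0.132 in siNC, and SLC43 genes 2.03% ± 0.0742 in siOSBPL3 and 8.33% ± 0.167 in siNC. Each of these 5 differences was many times the spread between libraries. Of the SLC1 share, SLC1A5 alone made up 25.1% in siOSBPL3 and 19.3% in siNC, and its direction turned with the correction; the other 5 SLC1 genes held 3.02% ± 0.560 in siOSBPL3 and 0.605% ± 0.0523 in siNC. The absolute shares depend on the length used: with the median length, the SLC38 share became 20.3% in siOSBPL3 and 58.1% in siNC, and the SLC1 share 17.1% in siOSBPL3 and 7.41% in siNC. The direction between groups was the same for each of these 5 subfamilies.

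**Figure D2:**
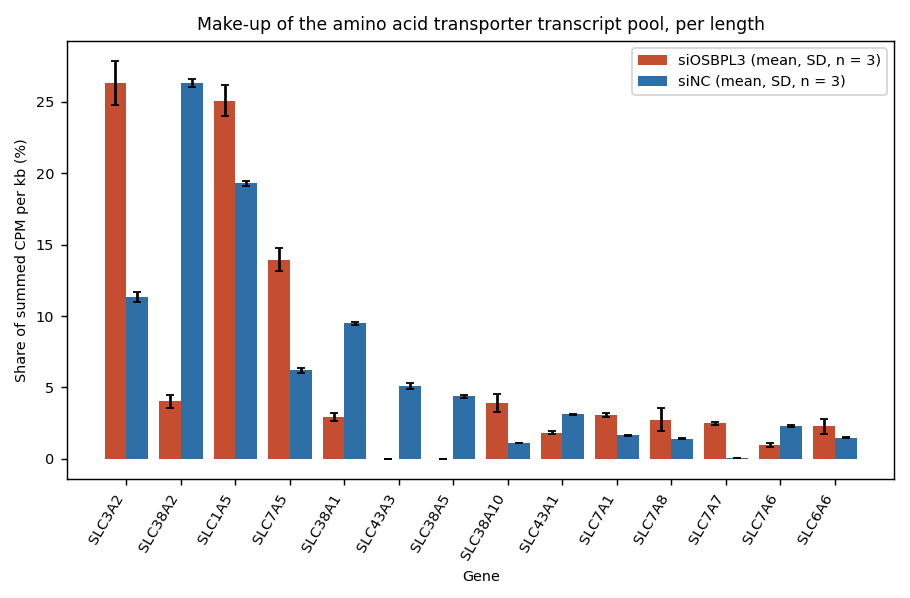
Share of the summed level per length (CPM per kb of the longest transcript, in percent of the sum over 47 members) for the 14 members with the highest share in either group. Bars are means and error bars SD over 3 libraries, siOSBPL3 left of siNC; SLC3A2, SLC1A5 and SLC7A5 lead in siOSBPL3 and SLC38A2 leads in siNC; with the median length SLC7A5 has rank 6 in siOSBPL3.

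Sodium-dependent SLC38 carriers of glutamine and other small neutral amino acids mostly fell. SLC38A2, the carrier known to be raised by amino acid shortage (chromosome 12, 46358188 to 46372773, GRCh38.p14 as for all positions here), stood at 208, 153 and 177 CPM in siOSBPL3, against 1154, 1159.6 and 1159 CPM in siNC. Every siOSBPL3 library lay far under every siNC library, and SLC38A2 fell (log2 fold change -2.69 ± 0.11 SE, adjusted p = 5.3e-10, -1.99 with the correction). SLC38A1, a related glutamine carrier (chromosome 12, 46183063 to 46269043), stood at 234, 195 and 213 CPM in siOSBPL3, against 701, 681 and 683 CPM in siNC, and it fell too (log2 fold change -1.68 ± 0.09 SE, adjusted p = 4.3e-09, -0.95 with the correction). Per length, SLC38A2 was at 36.7 ± 5.67 CPM per kb in siOSBPL3 and 237 ± 0.578 CPM per kb in siNC (SD, n = 3 each), rank 4 of 47 in siOSBPL3 and rank 1 in siNC.

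SLC38A5 and SLC38A3, glutamine carriers of system N, fell further. SLC38A5 (chromosome X, 48458544 to 48470260) had 3, 4 and 7 counts in the siOSBPL3 libraries, against 3422, 3556 and 3063 counts in siNC, or 0.08304, 0.109 and 0.177 CPM in siOSBPL3, against 104, 107 and 103 CPM in siNC. It was among the leading carriers in siNC and nearly absent in siOSBPL3 (siNC over siOSBPL3 ratio 841, 95% counting interval 501 to 1539). SLC38A3, the system N carrier typical of liver, kidney and brain, stood at 2.35, 1.64 and 1.72 CPM in siOSBPL3, against 14.3, 13.3 and 17.02 CPM in siNC (log2 fold change -2.97 ± 0.19 SE, adjusted p = 2.8e-08, -3.64 with the correction). SLC38A4, a carrier known from liver and placenta, had no count in siOSBPL3 and 78, 114 and 74 counts in siNC. Taking 3 counts over all siOSBPL3 libraries as the limit, it was at least 104-fold lower there. SLC38A1, SLC38A2 and SLC38A4 are neighbours on chromosome 12, and all of them fell.

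Lysosomal SLC38 members went both ways. SLC38A7, which exports glutamine from lysosomes, rose: it stood at 25.3, 33.1 and 26.1 CPM in siOSBPL3, against 11.6, 10.4 and 11.9 CPM in siNC (log2 fold change 1.32 ± 0.13 SE, adjusted p = 1.4e-06). SLC38A9, the lysosomal arginine sensor of the mTORC1 pathway, fell to 13.8, 6.53 and 7.23 CPM in siOSBPL3, against 30.6, 27.6 and 27.7 CPM in siNC. Replicate 1 was the highest siOSBPL3 library, yet under every siNC library (log2 fold change -1.64 ± 0.23 SE, adjusted p = 3.6e-05, -0.92 with the correction). SLC38A10, a member of the Golgi and endoplasmic reticulum with a less settled substrate, rose the most of the family. It stood at 148, 170.5 and 138 CPM in siOSBPL3, against 43.8, 43.1 and 43.3 CPM in siNC (log2 fold change 1.81 ± 0.09 SE, adjusted p = 4.0e-09), which the correction brought to 0.93. SLC38A6, at 10.02, 10.2 and 9.12 CPM in siOSBPL3, against 12.7, 11.6 and 9.91 CPM in siNC, overlapped between the groups and did not pass (-0.22 ± 0.14 SE, adjusted p = 0.16). SLC38A8, a glutamine carrier of the retina, summed to 42 counts in siOSBPL3 and 22 counts in siNC and did not pass (adjusted p = 0.30). Of the 10 SLC38 genes tested, 2 rose, 6 fell and 2 did not pass.

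Of the 5 SLC1 carriers of acidic and small neutral amino acids tested, 4 were called higher and SLC1A7 lower. SLC1A3, the glutamate carrier EAAT1 known from glia (chromosome 5, 36596588 to 36688334), had 995, 1991 and 2216 counts in siOSBPL3 and no count in siNC. Its level in siOSBPL3 was 27.5, 54.4 and 56.00 CPM, with replicate 1 the lowest; against 3 counts over the siNC libraries it was at least 1479-fold higher. SLC1A1, the epithelial and neuronal glutamate carrier EAAT3, had 394, 483 and 514 counts in siOSBPL3 and 0, 1 and 0 in siNC. It lay at 10.9, 13.2 and 12.99 CPM in siOSBPL3 (siOSBPL3 over siNC ratio 1186, 95% counting interval 213 to 46879.6); its fitted log2 fold change of 9.78 ± 0.41 hung on the single siNC count and was 11.76 without siNC replicate 2.

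The exchangers of neutral amino acids started from higher levels. SLC1A4 (ASCT1), which carries alanine, serine and cysteine, stood at 88.5, 72.1 and 58.7 CPM in siOSBPL3, against 16.3, 15.8 and 17.8 CPM in siNC, and rose (log2 fold change 2.14 ± 0.14 SE, adjusted p = 3.0e-08). SLC1A5 (ASCT2), the main glutamine exchanger of many tumour cells (chromosome 19, 46774883 to 46788594), stood at 800.0, 617 and 572 CPM in siOSBPL3, against 499.9, 501 and 502 CPM in siNC. All siOSBPL3 libraries were above siNC (log2 fold change 0.40 ± 0.11 SE, adjusted p = 0.0055), but the correction for GC content and length turned the direction to -0.44 (adjusted p = 0.0010). No direction is read for SLC1A5. SLC1A7, the glutamate carrier EAAT5 of the retina, fell to 0.498, 0.109 and 0.379 CPM in siOSBPL3, against 9.74, 7.197 and 9.07 CPM in siNC (-4.70 ± 0.36 SE, adjusted p = 1.3e-07, -5.41 with the correction). SLC1A2, the astroglial glutamate carrier, summed to 16 counts in siOSBPL3 and 11 in siNC and was not tested.

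Heavy chain SLC3A2 (CD98) and its light chain SLC7A5 (LAT1), which form the leucine exchanger that feeds mTORC1, rose together. SLC3A2 (chromosome 11, 62856109 to 62888860) stood at 658, 488 and 466 CPM in siOSBPL3, against 236, 218 and 226 CPM in siNC (log2 fold change 1.24 ± 0.12 SE, adjusted p = 1.2e-06). SLC7A5 (chromosome 16, 87830023 to 87869507) stood at 691, 572 and 478 CPM in siOSBPL3, against 249.8, 247 and 262 CPM in siNC (log2 fold change 1.20 ± 0.12 SE, adjusted p = 1.3e-06). Both were highest in siOSBPL3 replicate 1, and the groups did not overlap. The correction for GC content and length brought SLC3A2 to 0.55 and SLC7A5 to 0.51, with both still called. The ratio of SLC7A5 to SLC3A2, per length and within a library, was 0.530 ± 0.0381 in siOSBPL3 and 0.546 ± 0.0259 in siNC (SD, n = 3 each; exact permutation test, two-sided p = 0.70, where the smallest possible is 0.10).

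The other light chains changed in unequal measure. SLC7A7, the y+LAT1 exchanger whose loss causes lysinuric protein intolerance (chromosome 14, 22773222 to 22819791), stood at 74.2, 66.2 and 63.1 CPM in siOSBPL3, against 1.37, 1.84 and 1.48 CPM in siNC. This rise (log2 fold change 5.43 ± 0.14 SE, adjusted p = 1.4e-11) was the steepest of the light chains tested. SLC7A6, its close relative y+LAT2, fell to 54.3, 57.3 and 54.2 CPM in siOSBPL3, against 135, 125 and 130.5 CPM in siNC (-1.23 ± 0.08 SE, adjusted p = 2.3e-08). The 3′ end of SLC7A6 overlaps SLC7A6OS, whose reads cannot be told apart where the strand setting is unknown. Per length, SLC7A7 was above SLC7A6 in siOSBPL3, at 22.5 ± 1.896 and 8.76 ± 0.276 CPM per kb, whereas in siNC it was below, at 0.518 ± 0.0808 and 20.6 ± 0.782 CPM per kb (SD, n = 3 each). With the median length SLC7A6 was the higher in both groups, SLC7A7 and SLC7A6 being at 91.6 and 96.4 CPM per kb in siOSBPL3 and at 2.11 and 227 CPM per kb in siNC, so their order in siOSBPL3 depends on the length used. Relative to SLC3A2, SLC7A7 was at 0.0943 ± 0.00967 in siOSBPL3 and 0.00510 ± 0.00099 in siNC, and SLC7A6 at 0.0371 ± 0.00695 in siOSBPL3 and 0.202 ± 0.00123 in siNC (exact permutation p = 0.10 for each, the smallest possible with 3 against 3). The correction brought the log2 change of SLC7A6 relative to SLC3A2 to -1.52, against -2.48 without it.

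SLC7A8 (LAT2), a leucine exchanger typical of absorptive epithelia, stood at 80.4, 122 and 105 CPM in siOSBPL3, against 53.1, 52.9 and 55.7 CPM in siNC and rose (log2 fold change 0.93 ± 0.13 SE, adjusted p = 2.7e-05), with siOSBPL3 replicate 1 the lowest of its group. SLC7A11 (xCT), which exchanges cystine for glutamate (chromosome 4, 138164097 to 138242349), stood at 256, 152 and 177 CPM in siOSBPL3, against 129, 126 and 132 CPM in siNC. It was higher in every siOSBPL3 library, most in replicate 1 (log2 fold change 0.60 ± 0.15 SE, adjusted p = 0.0034), which the correction brought to 1.79. Relative to SLC3A2 it was lower in siOSBPL3, at 0.0831 ± 0.00978, against 0.131 ± 0.00466 in siNC (exact permutation p = 0.10, the smallest possible). The correction turned this direction: SLC7A11 changed by -0.65 on the log2 scale relative to SLC3A2 without it and by 1.24 with it, so none is read. SLC7A10, a light chain for small neutral amino acids, had no count in siOSBPL3 and 10 counts in siNC. The second heavy chain, SLC3A1, and its partner SLC7A9, which together take up cystine in kidney and gut, were near 0: SLC3A1 summed to 8 counts in siOSBPL3 and 32 in siNC, and SLC7A9 to 28 counts in siOSBPL3 and 3 in siNC.

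**Figure D3:**
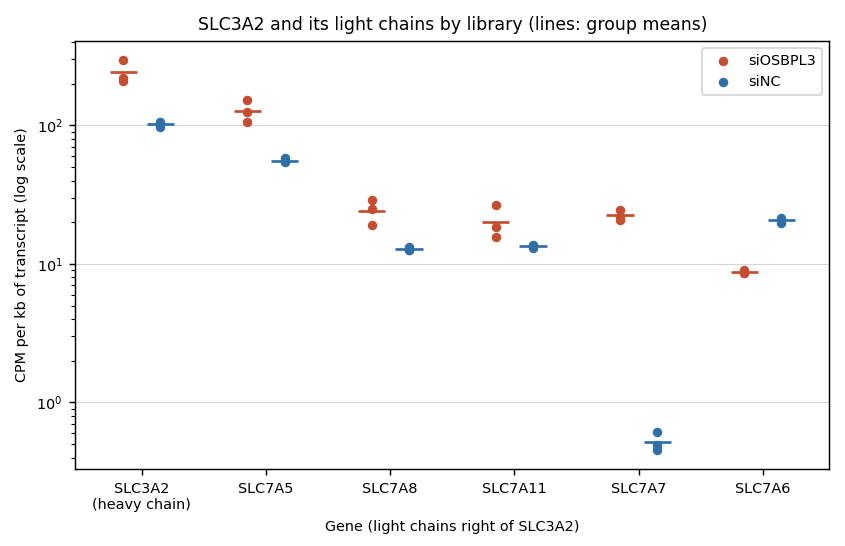
Level per length (CPM per kb of the longest transcript, log axis) of the heavy chain SLC3A2 and 5 of its light chains in each library, siOSBPL3 left of siNC, with group means as lines. SLC7A7 lies higher and SLC7A6 lower in siOSBPL3 than in siNC, and SLC3A2 and SLC7A5 lie higher in siOSBPL3.

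The cationic amino acid carriers, which bring in arginine and lysine, rose. SLC7A1 (CAT1), the widely expressed one (chromosome 13, 29509414 to 29595688), stood at 234, 206 and 178 CPM in siOSBPL3, against 108, 111 and 108 CPM in siNC (log2 fold change 0.92 ± 0.10 SE, adjusted p = 3.6e-06). SLC7A2 (CAT2), known for its induction in activated macrophages and liver, stood at 21.9, 23.4 and 26.2 CPM in siOSBPL3, against 2.71, 3.07 and 2.09 CPM in siNC (log2 fold change 3.18 ± 0.16 SE, adjusted p = 3.6e-09, 3.90 with the correction). SLC7A1 stayed the higher of the pair per length in both groups, at 28.1 ± 3.78 against 3.12 ± 0.286 CPM per kb in siOSBPL3. SLC7A3 had no count in any library.

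SLC43 carriers, which move large neutral amino acids by facilitated diffusion, included one of the steepest falls. SLC43A3, the purine nucleobase carrier of the family (chromosome 11, 57406954 to 57427580), had 1, 7 and 1 counts in siOSBPL3, against 4068, 4052 and 3397 counts in siNC. In CPM it stood at 0.0277, 0.191 and 0.0253 CPM in siOSBPL3, against 124, 122 and 114 CPM in siNC (siNC over siOSBPL3 ratio 1501, 95% counting interval 790.3 to 3283). Its fitted log2 fold change of -10.49 ± 0.23 rested on few counts and was -11.96 without siOSBPL3 replicate 2, which held 7 of the 9. SLC43A1 (LAT3) fell to 51.95, 39.5 and 39.6 CPM in siOSBPL3, against 73.6, 70.7 and 73.7 CPM in siNC (-0.74 ± 0.11 SE, adjusted p = 5.1e-05, -1.43 with the correction). SLC43A2 (LAT4) rose, at 15.3, 14.4 and 12.8 CPM in siOSBPL3, against 8.76, 9.395 and 9.87 CPM in siNC (0.60 ± 0.13 SE, adjusted p = 0.0010).

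Without the correction, proton-coupled SLC36 carriers were a little lower, with calls that depended on the processing. SLC36A1 (PAT1), a carrier of small amino acids at the gut brush border and on lysosomes, stood at 11.3, 16.6 and 11.5 CPM in siOSBPL3, against 17.1, 16.7 and 16.8 CPM in siNC. Its lower level (-0.36 ± 0.15 SE, adjusted p = 0.045) lost the call without any 1 library except siOSBPL3 replicate 2 (adjusted p 0.090 to 0.15) and where library totals replaced TMM (0.070). SLC36A4 (PAT4) stood at 17.5, 20.6 and 25.3 CPM in siOSBPL3, against 32.9, 34.9 and 33.4 CPM in siNC (log2 fold change -0.67 ± 0.13 SE, adjusted p = 0.00040) that the correction turned to 0.30 (adjusted p = 0.026). Over all alternatives the adjusted p of SLC36A1 ran from 0.0017 to 0.15 and that of SLC36A4 from 3.9e-07 to 0.026. For SLC36A4 the upper end, 0.026, belongs to the correction and to the opposite direction, so no direction is read for SLC36A4.

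SLC6A20 (SIT1), a carrier of proline and other imino acids in gut and kidney, was the SLC6 gene that differed most. It lies on chromosome 3, 45755449 to 45796536, and had 2077, 2222 and 2340 counts in siOSBPL3 and none in siNC. Its siOSBPL3 levels were close together, at 57.5, 60.7 and 59.1 CPM, and against 3 counts over the siNC libraries it was at least 1887-fold higher. CLTRN (collectrin), known as a partner that kidney carriers of this family need to reach the membrane, stood at 1.74, 1.34 and 1.42 CPM in siOSBPL3, against 4.53, 3.19 and 3.303 CPM in siNC and fell (-1.29 ± 0.27 SE, adjusted p = 0.00081). The scaffold gene PDZK1, which holds carriers at the brush border, fell to 0.111, 0.355 and 0.202 CPM in siOSBPL3, against 10.01, 10.1 and 8.796 CPM in siNC (-5.41 ± 0.31 SE, adjusted p = 1.0e-08).

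Of the other SLC6 carriers, SLC6A9 (GlyT1), which takes up glycine, stood at 17.4, 8.69 and 6.14 CPM in siOSBPL3, against 4.99, 5.66 and 6.37 CPM in siNC. The groups overlapped, and the call (0.92 ± 0.31 SE, adjusted p = 0.018) rested on siOSBPL3 replicate 1, without which the log2 fold change was 0.39 (adjusted p = 0.065). It was also lost without siNC replicate 1 (0.084) or 2 (0.075), with limma-voom (0.070), with no filter (0.070) and with the GC and length correction (0.18, 0.60), in a range from 0.0027 to 0.60. SLC6A6, the taurine carrier (chromosome 3, 14402576 to 14489349), stood at 118, 158 and 125 CPM in siOSBPL3, against 87.2, 85.2 and 88.9 CPM in siNC and rose (0.62 ± 0.11 SE, adjusted p = 0.00018). SLC6A8, the creatine carrier, stood at 26.1, 27.5 and 21.7 CPM in siOSBPL3, against 26.96, 30.5 and 26.5 CPM in siNC. Its groups overlapped and it did not pass (-0.16 ± 0.11 SE, adjusted p = 0.21), though with the correction it was called lower (-0.97, adjusted p = 6.0e-06). SLC6A12, a betaine and GABA carrier, was lower at 1.61, 1.28 and 1.42 CPM in siOSBPL3, against 1.76, 2.198 and 3.303 CPM in siNC (-0.75 ± 0.32 SE, adjusted p = 0.048). That call was lost without siOSBPL3 replicate 2 or 3 (adjusted p = 0.11 and 0.089), without siNC replicate 2 or 3 (0.077 and 0.28) with limma-voom (0.056), with library totals (0.066), with no filter (0.058) and with the replicate number as a block (0.10), in a range from 0.0047 to 0.28. SLC6A16, an orphan carrier, stood at 1.88, 1.804 and 2.35 CPM in siOSBPL3, against 3.16, 2.62 and 2.56 CPM in siNC, did not overlap and did not pass (-0.47 ± 0.26 SE, adjusted p = 0.12), but was called with the correction (-0.69, adjusted p = 0.026).

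**Figure D4:**
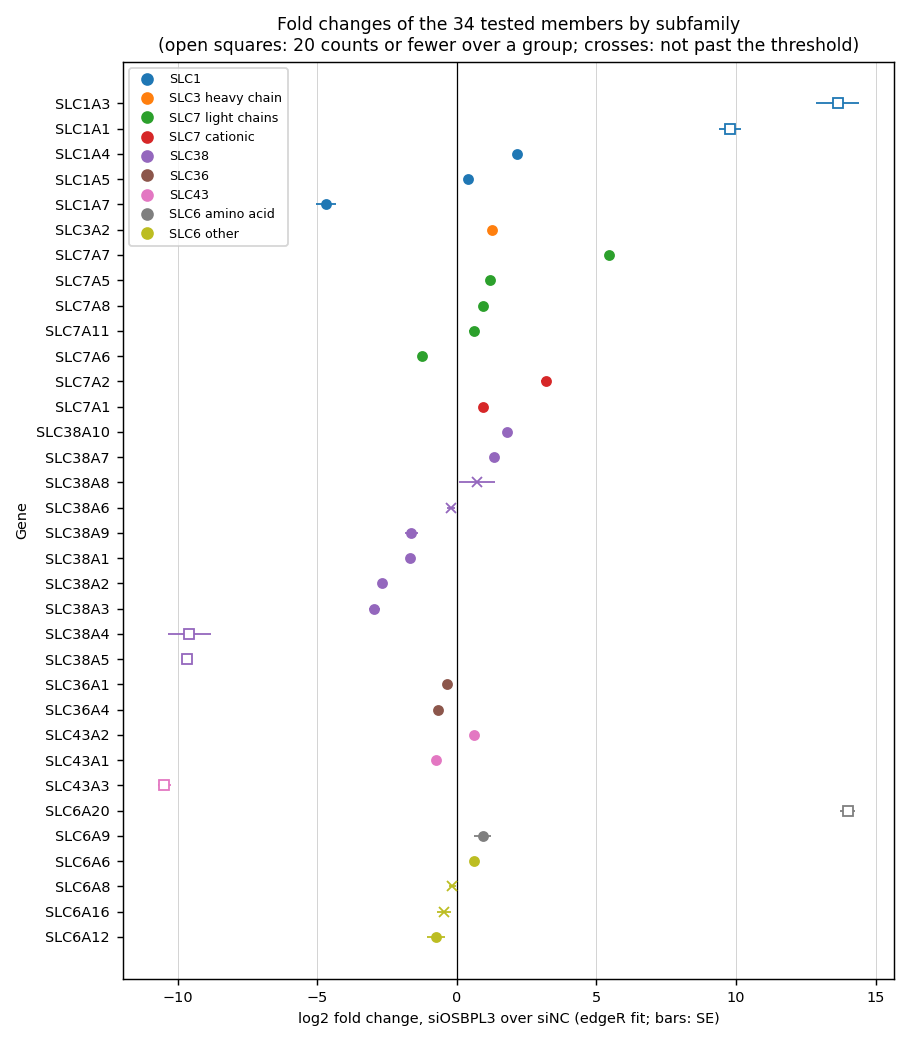
Log2 fold change, siOSBPL3 over siNC, of the 34 members with enough counts, by subfamily (points: edgeR fit; bars: SE). Open squares rest on 20 counts or fewer over a group and are no measure of size; SLC38 genes lie mostly left of 0 and SLC7 genes mostly right of it, with SLC7A6 to the left.

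The remaining members had too few counts to test. SLC6A18, a kidney carrier of neutral amino acids, summed to 36 counts in siOSBPL3 and 1 in siNC, and SLC6A7, the brain proline carrier, to 36 counts in siOSBPL3 and 2 in siNC. SLC6A13, a GABA carrier, summed to 18 counts in siOSBPL3 and 1 in siNC. SLC6A14, the broad carrier of neutral and cationic amino acids in colon, had no count in siOSBPL3 and 7 counts in siNC. SLC38A11 had none in siOSBPL3 and 15 in siNC. SLC6A4, the serotonin carrier, had 1 count in siOSBPL3 and 16 in siNC, SLC6A3, the dopamine carrier, 5 in siOSBPL3 and 1 in siNC, and SLC6A11 1 in siOSBPL3 and 4 in siNC. With SLC1A2, SLC3A1, SLC7A3, SLC7A9 and SLC7A10 these make up the 13 members not tested, and each stayed under 0.60 CPM in every library. Besides SLC7A6, annotated genes overlap SLC6A9 (CCDC24), SLC38A6 (TRMT5), SLC6A6 (GRIP2), SLC6A16 (CD37), SLC7A11 (SLC7A11-AS1), SLC3A1 (PREPL) and SLC7A10 (LRP3), and reads of such pairs may be split wrongly where the strand setting is unknown.

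Within siOSBPL3 the members did not vary alike. Of the 26 members that average 5 CPM or more in siOSBPL3 itself, a filter chosen after the values were seen, 6 differed by more than 1.5 times between the highest and the lowest siOSBPL3 library (SLC1A3, SLC1A4, SLC6A9, SLC7A8, SLC7A11 and SLC38A9), as did 10.0% of all genes at that level. Of the 25 members at that level in siNC 0 did, against 0.465% of all genes. Replicate 1, the library with the most OSBPL3 left, was the highest of the 3 for 13 of the 26 members, and for 30.5% of all genes at that level. Of the 26, SLC6A9, SLC38A9, SLC7A11, SLC3A2, SLC1A4, SLC1A5 and SLC7A5 had the highest ratios of replicate 1 to the mean of replicates 2 and 3, 1.32 to 2.35 times. Among other members called lower against siNC, SLC43A1, SLC38A2 and SLC38A1 were also higher in replicate 1, at 1.31, 1.26 and 1.15 times. SLC7A6, SLC36A1 and SLC36A4 were not, at 0.975, 0.801 and 0.762 times. SLC1A3 was lower there, at 0.499 times that mean, and SLC7A8 at 0.707 times. SLC6A20 stood at 0.959 times. Of 28 genes of the ATF4 response, 25 were at that level in siOSBPL3, and 18 of them (72.0%) were highest in replicate 1. DDIT3 stood at 91.9, 38.5 and 36.5 CPM in siOSBPL3, against 58.7, 53.99 and 53.4 CPM in siNC, and CHAC1 at 63.00, 27.9 and 24.97 CPM in siOSBPL3, against 20.2, 22.1 and 24.6 CPM in siNC; both are known stress genes of this pathway and were chosen after their values were seen. These 3 libraries allow no test of such a relation, and the part of the remaining OSBPL3 in it was not tested.

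**Figure D5:**
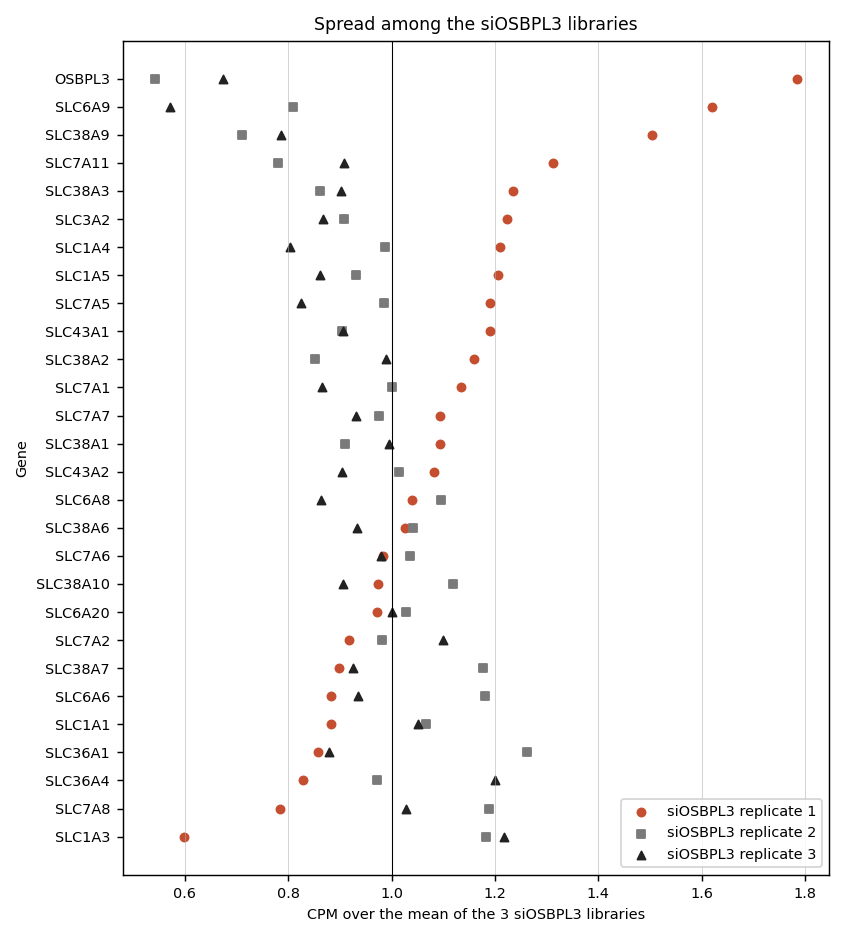
CPM of OSBPL3 and of the members that average 5 CPM or more and have over 20 siOSBPL3 counts, in each siOSBPL3 library, divided by the mean of the 3 siOSBPL3 libraries, ordered by replicate 1. OSBPL3, SLC6A9, SLC38A9 and SLC7A11 were highest in replicate 1, and SLC1A3 and SLC7A8 lowest there.

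Between 67.9% and 86.4% of the genes of 5 partner lists were called, where 80.2% of all genes were. Among 14 accessory partners 6 rose, 5 fell and 3 did not pass; with the correction 4 were higher and 6 lower. Besides CLTRN and PDZK1, ITGB1, the integrin bound by CD98, fell (-1.29 ± 0.09 SE, adjusted p = 5.9e-08). The scaffold gene SLC9A3R2 (NHERF2) was higher (1.42 ± 0.09 SE, adjusted p = 3.3e-08) and so was BSG, a chaperone of monocarboxylate carriers (0.87 ± 0.08 SE, adjusted p = 5.1e-07), but with the GC and length correction neither was called (0.19, adjusted p = 0.10, and -0.06, adjusted p = 0.48).

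Of the mTORC1 arm that senses imported amino acids, 22 of 41 genes were higher, 9 were lower and 10 did not pass; with the correction 16 were higher and 13 lower. SESN3, a stress-induced brake on mTORC1, fell to 8.83, 8.69 and 9.58 CPM in siOSBPL3, against 305, 297 and 295 CPM in siNC (-5.05 ± 0.10 SE, adjusted p = 1.8e-12, -3.97 with the correction). WDR59, part of the GATOR complex, fell as well (-2.25 ± 0.12 SE, adjusted p = 5.8e-09). AKT1S1 (PRAS40), an mTORC1 inhibitor, rose (2.02 ± 0.09 SE, adjusted p = 1.4e-09, 1.30 with the correction), as did KPTN, a subunit of the KICSTOR scaffold (2.64 ± 0.13 SE, adjusted p = 3.3e-09, 1.69 with the correction). Of the other sestrins, SESN2 rose (1.53 ± 0.15 SE, adjusted p = 9.8e-07) and SESN1 did not pass (0.09 ± 0.14 SE, adjusted p = 0.57), so the sestrins did not move one way. The median log2 fold change of the 41 genes was 0.31.

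Genes of the ATF4 and amino acid response did not move one way: of 28 tested, 8 rose, 11 fell and 9 did not pass. ATF5, a factor translated under amino acid shortage, rose (2.78 ± 0.10 SE, adjusted p = 2.2e-10, 1.94 with the correction). STC2, a secreted glycoprotein of the response, had 1, 1 and 0 counts in siOSBPL3, against 1566, 1690 and 1433 in siNC. CBS, which makes cystathionine on the way to cysteine, had none in siOSBPL3 and 664, 534 and 610 counts in siNC, at least 707-fold lower. ALDH18A1, the first enzyme of proline synthesis, fell (-1.28 ± 0.08 SE, adjusted p = 3.4e-08). ATF4 itself stood at 959.7, 624 and 604 CPM in siOSBPL3, against 871, 851 and 829.9 CPM in siNC, with siOSBPL3 replicate 1 above siNC and the other 2 below.

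Enzymes that use what the carriers bring in were split, with 14 of 31 higher, 12 lower and 5 not past the threshold; with the correction 11 were higher and 15 lower. GCLM, the modifier subunit of the enzyme that uses cysteine for glutathione, rose to 139, 131 and 152 CPM in siOSBPL3, against 41.3, 40.4 and 40.2 CPM in siNC (1.79 ± 0.08 SE, adjusted p = 1.8e-09, 2.54 with the correction). PYCR3 and ALDH4A1, of proline synthesis and proline breakdown, both rose (2.47 ± 0.13 and 2.04 ± 0.12, 1.51 and 1.30 with the correction). Among 22 tested carriers outside the 7 families, most but not all of them for amino acids or peptides, 12 rose, 7 fell and 3 did not pass. The mitochondrial glutamate carrier SLC25A22 (2.19 ± 0.09 SE, adjusted p = 4.9e-10, 1.21 with the correction) and the lysosomal exporter of cationic amino acids SLC66A1 (2.17 ± 0.13 SE, adjusted p = 1.9e-08, 1.14 with the correction) rose. The aromatic amino acid carrier SLC16A10 (-2.41 ± 0.15 SE, adjusted p = 1.7e-08, -1.34 with the correction) and the vesicular nucleotide carrier SLC17A9 (-2.09 ± 0.14 SE, adjusted p = 3.9e-08, -2.88 with the correction) fell.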

How the data were processed

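RNA-seq of total RNA was analysed in 3 siOSBPL3 and 3 siNC libraries. The authors deposited raw read counts per gene symbol, 1 column per library; HISAT2 2.2.1, HTSeq 0.13.5 and the GRCh38 (hg38) build are named in the submitters' processing notes. The annotation and strand setting are not named there. Each column carries the name of its library.

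Counts of all 20729 genes were tested with edgeR 4.0.16 (R 4.3.3): filterByExpr (minimum count 10, total 15), TMM, robust quasi-likelihood fit on group, two-sided, Benjamini-Hochberg over 15506 genes, threshold 0.05. The SE is the fold change over the root of F. The test was checked on simulated data. No 2 libraries agreed within sampling noise. Lower bounds use 3 counts over a group; 95% intervals are exact binomial and, like the bounds, cover counting error only. Levels per length use GENCODE 29 transcripts; positions and promoters come from RefSeq (GRCh38.p14).

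The members, the 5 partner lists, the markers and the motifs were chosen with earlier results of these data known. Every member was accounted for, those with a mean of at least 5 CPM or nearly absent from 1 group with values by library, and up to 4 genes per list with the smallest adjusted p were named; others were named after their values were seen. Some list genes are not reported here. Alternatives were leaving out each library, a block for the replicate number, DESeq2 1.42.0, limma-voom (limma 3.58.1), RLE factors, library totals, a stricter threshold (0.01), a stricter filter (5 CPM on average) or none, and a per-library smooth correction for GC content and length (mgcv 1.9.3, 91.1% of tested genes). Protein sequences were not used here.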

Additional observations from a re-analysis of the deposited data

How the results depend on the processing

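Of 505 values of single members under the alternatives, 476 kept their direction and their side of the threshold, 23 lost the call, 2 gained it and 4 changed direction. The 4 came with the correction for GC content and length: SLC1A5 (-0.44), SLC36A4 (0.30), SLC38A6 (0.13) and SLC38A8 (-0.28) on the log2 scale, as did BSG (-0.056) and the change of SLC7A11 relative to SLC3A2 (1.24); the cause was not tested. The median log2 fold change of the members moved to 0.15 with that correction, and between 0.27 and 0.56 when 1 library was left out. With a mean of at least 5 CPM, 3 accessory partners were called lower in place of 5, since fewer genes were tested. With the median transcript length, the level per length summed over the members was 3065 CPM per kb in siOSBPL3 and 3965 CPM per kb in siNC. Scaling by library totals moved the median of all genes to 0.04.

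Same-numbered libraries did not deviate together (correlations -0.0061, -0.0088 and -0.0043). Such values cannot tell whether these libraries were prepared together, and the labels do not say that the numbers pair them. With the replicate block 17 members rose and 12 fell, against 17 and 13 without it; SLC6A12 lost its call (adjusted p = 0.10), and over all genes 6133 rose and 6144 fell. A filter of 5 CPM on average over all libraries, in place of siOSBPL3 itself, was a setting added after the data were seen. With it, 8 of 29 members passed 1.5 times between siOSBPL3 libraries, as did 12.2% of all genes. Among the 8, SLC38A5 (3, 4 and 7 siOSBPL3 counts) and SLC43A3 (1, 7 and 1) met this filter only through siNC. Their spread rests on few counts. At these depths, members under about 0.1 CPM rest on a few counts.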
